A study of Solanum lycopersicum with 6 samples.

Results

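Polyphenol oxidases (PPOs) were represented by 6 of the 21708 genes listed in any of 6 libraries from tomato exocarp, the outer layer of the fruit. A gene belonged to the family where its product description or its best protein hit contained the words polyphenol oxidase. The family was chosen with its difference between the genotypes already known, so the levels and fold changes of its members are given as a description and carry no test. Libraries came from exocarp of the wild type (WT, n = 3) and of nor-like1 (n = 3), a knockout of the NAC transcription factor gene SlNOR-like1, all at the fruit stage labelled MG. Fruit age, cultivar, the kind of mutation and the number of independent lines are not stated in the labels. The labels also do not say whether each library had its own plant or fruit, and the p-values below therefore cover the spread among libraries alone, which could be technical. Values per library are given in the order of replicates 1 to 3.

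Polyphenol oxidases are copper enzymes that oxidise ortho-diphenols, such as chlorogenic acid, to reactive quinones, the step behind the browning of cut fruit. The precursor proteins carry a plastid transit peptide and a signal for the thylakoid lumen, while most of their phenolic substrates are held in the vacuole, so enzyme and substrate meet mainly when a cell is damaged. In tomato most of the family lies in a cluster on chromosome 8, and several members are known from leaves as anti-herbivore defences of glandular trichomes or as genes induced by wounding.

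The best protein hits divided the 6 genes into named forms. By identifier, 5 lie on chromosome 8 and 1 on chromosome 2. The 5 on chromosome 8 were PPO E (Solyc08g074620.3, 2001 bases), PPO F (Solyc08g074630.2, 1764 bases), a gene like PPO E (Solyc08g074650.4, 1670 bases), PPO D (Solyc08g074682.1, 1776 bases) and PPO B (Solyc08g074683.1, 1791 bases). The gene on chromosome 2 was annotated only as PPO-like (Solyc02g078650.4, 2164 bases). Of 4 loci expected in advance, 3 were among the 6. The other, Solyc08g074680, was not listed in any library and was not analysed here. Whether its reads are counted under another identifier of the family, PPO B or D included, was not tested. A search for other names of the enzyme class (catechol oxidase, tyrosinase, aureusidin synthase, diphenol oxidase) added 0 genes.

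The values of PPO B, F and E in nor-like1 all lay above those in WT, and PPO B was the main transcript of the family in both genotypes. The summed level of the family differed widely among the WT libraries and was far higher in each nor-like1 library, in FPKM (fragments scaled by transcript length and library size). Summed over the 6 genes it measured 0.33, 1.64 and 8.83 FPKM in WT. The sums were 342.2, 258.8 and 516.2 FPKM in nor-like1. The means were 3.60 ± 4.58 and 372.4 ± 131.3 FPKM (SD, n = 3 each), a ratio of 103.4. RNA came from bulk tissue, so that fewer cells making a transcript and less of it per cell cannot be told apart.

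**Figure D1:**
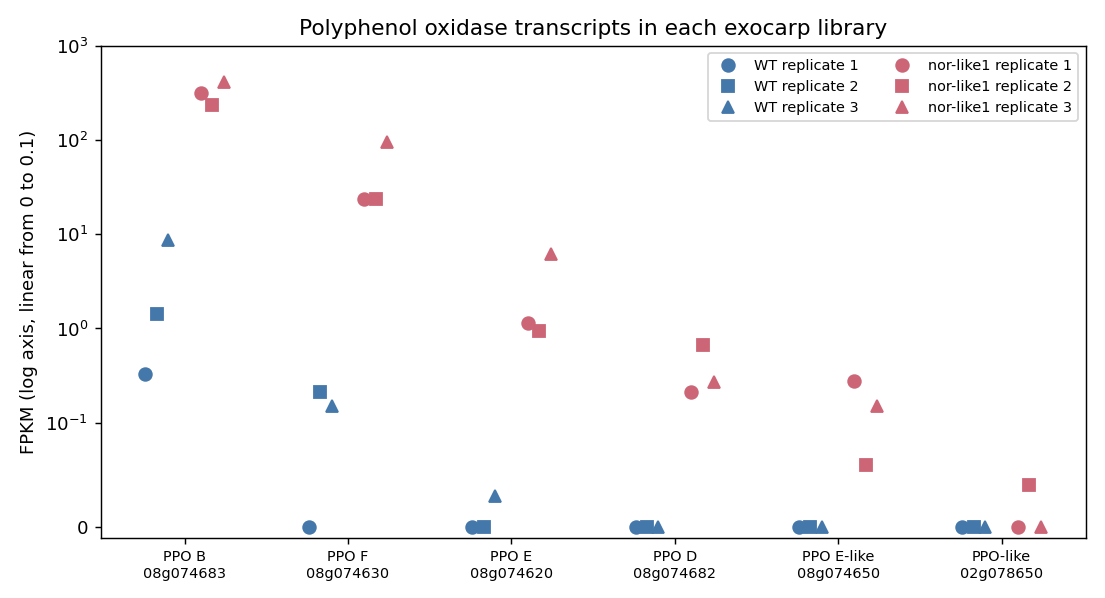
FPKM of each polyphenol oxidase gene (horizontal axis) in each library, on a logarithmic vertical axis that is linear from 0 to 0.1. Blue symbols are the 3 WT libraries and red symbols the 3 nor-like1 libraries; PPO B, F and E show red symbols above all blue ones, with PPO B between 233.6 and 413.9 FPKM in nor-like1.

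PPO B gave expected counts of 10, 28 and 242 in WT. In nor-like1 it gave 6092, 4247 and 6126. Those values correspond to 0.33, 1.43 and 8.65 FPKM in WT and 317.0, 233.6 and 413.9 FPKM in nor-like1. The groups did not overlap, and the WT libraries were far apart from each other, with WT replicate 3 the highest. On the scale of CPM (counts scaled by library size), the highest WT library was 25.3 times the lowest, whereas the highest nor-like1 library was 1.76 times the lowest. The lowest nor-like1 library still held 28.1 times the CPM of WT replicate 3. The fitted log2 fold change was 6.55 (SE 1.10), the 22nd highest of the 16380 genes tested, and it was 8.64 without WT replicate 3. A counting interval on the pooled counts alone put the ratio of CPM at 89.1 (95% 79.2 to 100.6), which leaves out the spread between libraries.

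The rank of PPO B among the genes of each library moved accordingly. Its FPKM ranked 249, 367 and 188 from the top in nor-like1. In WT it ranked 17007, 14989 and 10530. In nor-like1 between 0.975% and 1.87% of the listed genes stood above it, and in WT between 53.7% and 87.2%.

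PPO F, a form known from tomato leaves to respond to wounding, was nearly undetected in WT. Its expected counts were 0, 4 and 4 in WT and 446, 420 and 1395 in nor-like1. In FPKM it measured 0, 0.21 and 0.15 in WT and 23.6, 23.5 and 95.8 in nor-like1. No WT library came near a nor-like1 library, and nor-like1 replicate 3 stood above the other 2. The mean went from 0.199 ± 0.181 CPM to 82.4 ± 72.1 CPM (SD, n = 3 each). The fitted log2 fold change was 8.76 (SE 1.05), the 4th highest of the tested genes, and it was 7.75 without nor-like1 replicate 3. The pooled counts gave a ratio of 428 (95% 217 to 993, counting error only).

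PPO E was the third member with more than a few reads. It gave expected counts of 0, 0 and 1 in WT and 25, 19 and 102 in nor-like1. The corresponding FPKM in nor-like1 were 1.15, 0.93 and 6.11. As with PPO F, nor-like1 replicate 3 was the highest, at 6.55 times the CPM of nor-like1 replicate 2. The fitted log2 fold change was 7.37 (SE 1.35), the 12th highest. It rests on 1 WT read, and the pooled ratio of 221 had a counting interval from 39.1 to 8797. Leaving out WT replicate 3, which holds that read, gave 8.95, and leaving out nor-like1 replicate 3 gave 6.04.

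The remaining members were at or close to the limit of detection. PPO D had 0 counts in every WT library and 4, 12 and 4 counts in nor-like1, which was at least 10.1-fold higher when the WT group is set at a floor of 3 counts in total. The gene like PPO E also had 0 counts in WT, with 5, 1 and 2 counts in nor-like1, or at least 4.04-fold higher by the same floor. The PPO-like gene of chromosome 2 had a single count, in nor-like1 replicate 2, and no fold is given. In a single library, 3 counts correspond to 0.174 to 0.266 CPM in WT and 0.273 to 0.356 CPM in nor-like1, unlike the floor over a whole group used for the folds. The intervals cover counting error only.

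Altogether 5 of the 6 members had every nor-like1 library above every WT library, the exception being the gene on chromosome 2. The same held for 20.5% of all tested genes, and groups that did not overlap in either direction were found for 42.9%. PPO D and the gene like PPO E are counted in the 5 but were not among the tested genes. A filter on low counts, which a gene can pass through 1 genotype alone, left 3 members, PPO B, F and E. All 3 lay past the threshold used for the whole table in edgeR (adjusted p below 0.05), where 10.5% of tested genes were called higher. Since the family was picked on this contrast, nothing is read from those shares. Leaving out WT replicate 2 left 1 of the 3 past the threshold, PPO F. PPO E was also not past it without WT replicate 1 or without WT replicate 3. A log2 fold change of at least 6 past the threshold was found for 36 tested genes, 0.22% of them, and PPO B, F and E are among these.

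PPO B dominated the family's transcripts in both genotypes, in FPKM. It held 100%, 87.2% and 98.0% of the summed FPKM in WT. In nor-like1 it held 92.6%, 90.3% and 80.2%. PPO F made up most of the remainder in nor-like1, with 6.90%, 9.08% and 18.6%, and PPO E between 0.336% and 1.18%. The order PPO B, F, E, in FPKM, was the same in each nor-like1 library and each step exceeded the spread between those libraries. PPO D and the gene like PPO E followed, with ranges in nor-like1 that overlapped (0.21 to 0.67 and 0.06 to 0.28 FPKM). The WT shares of PPO F rest on at most 4 counts in a library.

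**Figure D2:**
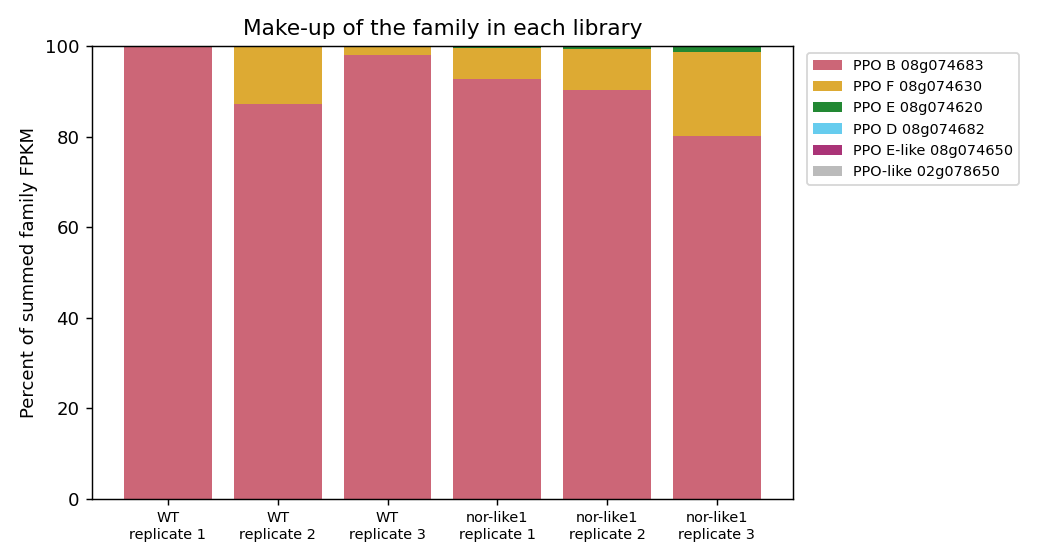
Percentage of the family's summed FPKM (vertical axis) held by each polyphenol oxidase gene in each library. PPO B fills 80.2% to 100% of every bar, and PPO F is largest among the nor-like1 libraries in replicate 3, at 18.6%.

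The proportions among the 3 tested members varied between the nor-like1 libraries. The ratio of PPO F to PPO B in FPKM was 0.0745, 0.101 and 0.232 in nor-like1. The ratio of PPO E to PPO F was closer, at 0.0487, 0.0396 and 0.0638. Across all 6 libraries Pearson's r of log2(CPM + 1) was 0.955 between PPO B and F, 0.946 between PPO F and E and 0.854 between PPO B and E. These correlations describe libraries that form separate groups by genotype, and the gap between the genotypes enters all of them.

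PPO genes are close relatives, and reads can be shared between copies. Expected counts divide such reads, so the values of single members are uncertain to that extent. All 6 members had whole-number expected counts in all 6 libraries, as did 91.6% of the listed genes. The authors' deposited table gave log2 fold changes of 2.23 for PPO B, 2.49 for PPO F, 3.13 for PPO E and 1.53 for PPO D, all higher in nor-like1. It gave 0.78 for the gene like PPO E and 0.14 for the gene on chromosome 2. The kind of fold change in that table is not stated. For PPO B, F and E, the members also fitted here, its values were smaller than the 6.55, 8.76 and 7.37 given above. The largest absolute value in that table was 6.78. In the fit used here, 41 tested genes had an absolute value of at least 6, in either direction and whether called or not. A like count for the authors' values is not given.

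For the whole series, total expected counts ran from 11459875 to 17578533 in WT and from 8503210 to 11023036 in nor-like1. Of the 16380 genes tested, 1713 gave a higher and 1872 a lower level in the knockout (edgeR quasi-likelihood test, Benjamini-Hochberg adjusted p below 0.05). The SlNOR-like1 transcript (Solyc07g063420.3) was 121.6 ± 7.78 CPM in WT and 19.8 ± 4.10 CPM in nor-like1 (log2 fold change -2.61, edgeR adjusted p = 0.000532). On the first principal component, with 70.8% of the variance, WT replicate 3 lay at -20.4 and the other WT libraries at -59.8 and -51.6, against 31.5 to 51.4 for nor-like1. WT replicate 3 was thus the WT library nearest to nor-like1, and it was also the WT library with most PPO B. Its part in the values of PPO B was not tested beyond the fit without it.

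The loci around and between the PPO genes on chromosome 8 had small differences in both directions. Among the loci from Solyc08g074500 to Solyc08g074800, which flank and interrupt the PPO cluster, 16 other genes were listed and 15 tested, and their log2 fold changes lay between -0.91 and 0.54, with a median of -0.05 beside -0.01 for all tested genes. None of the 15 was called higher (edgeR adjusted p below 0.05), while 1 of them had an unadjusted p below 0.05 in that direction and DESeq2 called 1 higher. The pair of loci that lie between PPO genes by number were an F-box/kelch-repeat gene, SKIP25 (Solyc08g074660.1, log2 fold change -0.62, edgeR adjusted p = 0.142), and a Mediator subunit 28 gene (Solyc08g074670.3, 0.26, adjusted p = 0.495). The tested loci nearest on either side were a DNA helicase gene (Solyc08g074600.4, log2 fold change -0.16, edgeR adjusted p = 0.631) and a poly(ADP-ribose) polymerase gene (Solyc08g074730.2, 0.21, adjusted p = 0.505). The 1 neighbour that passed the threshold fell, a protein kinase superfamily gene (Solyc08g074560.3), from 70.8 ± 9.59 to 37.6 ± 3.42 CPM (SD, n = 3 each; log2 fold change -0.91, edgeR adjusted p = 0.00675). A receptor-like kinase gene (Solyc08g074760.3) gave 0.42 with an edgeR adjusted p of 0.0544. That gene passed with DESeq2 (adjusted p = 0.0331), with upper-quartile factors in edgeR (adjusted p = 0.0428) and without WT replicate 3 (adjusted p = 0.0143). Without WT replicate 3, a zinc finger gene (Solyc08g074750.2) was also called, at -0.40 with an edgeR adjusted p of 0.0313.

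**Figure D3:**
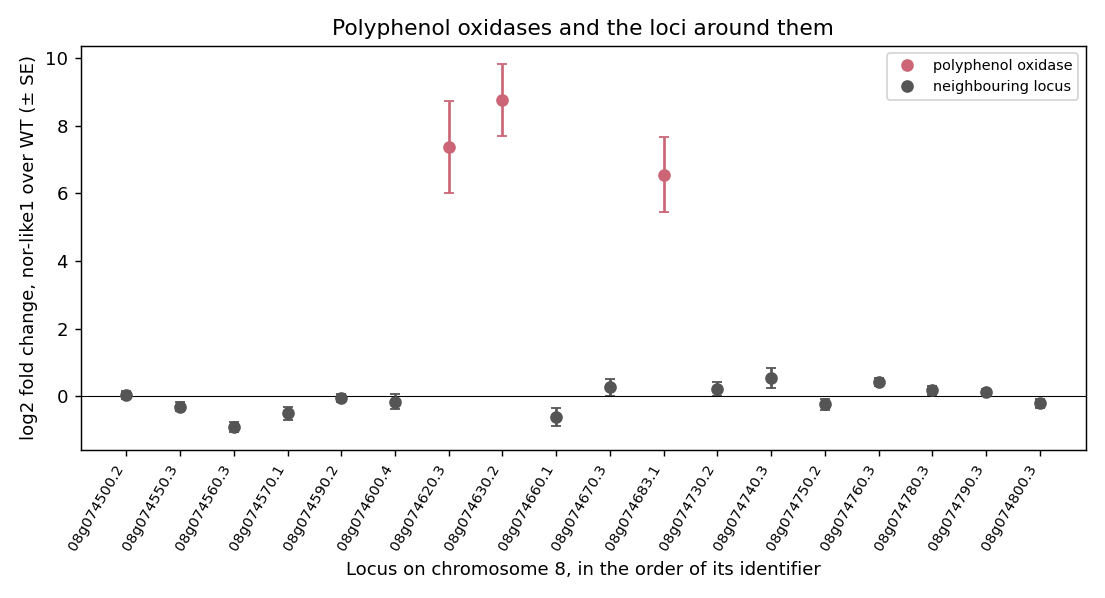
Log2 fold change of nor-like1 over WT (vertical axis, bars ± SE from the edgeR fit over 6 libraries) for each tested locus on chromosome 8 in the order of its identifier (horizontal axis). The 3 tested PPO genes lie between 6.55 and 8.76 and the 15 neighbouring loci between -0.91 and 0.54.

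Most called genes of hydroxycinnamate metabolism, which supplies the diphenol substrates, were higher in nor-like1. Of 41 listed genes from phenylalanine ammonia-lyase to the hydroxycinnamoyl transferases, 32 were tested, 17 were called higher, 4 lower and 11 were not called. Their median log2 fold change was 1.17, beside -0.01 for all tested genes, of which 10.5% were called higher and 11.4% lower. The list also takes 3 tyramine hydroxycinnamoyl transferases, which draw on the same acyl-CoA esters but make amides. Of these 2 were tested and 1 was higher (Solyc08g068730.1, log2 fold change 6.42, edgeR adjusted p = 0.00841). Without them 16 of 30 tested genes were higher and 4 lower, with a median of 1.16. The 3 with the smallest p-values were 4-coumarate:CoA ligase genes, which activate hydroxycinnamic acids, and a caffeoylshikimate esterase, which releases caffeic acid. One ligase gene (Solyc03g117870.3) rose from 83.2 ± 7.75 to 310.1 ± 62.4 CPM (SD, n = 3 each; log2 fold change 1.90, edgeR adjusted p = 0.00184). The other (Solyc06g068650.4) rose from 3.62 ± 1.65 to 66.5 ± 23.5 CPM (log2 fold change 4.18, edgeR adjusted p = 0.00312). The esterase gene (Solyc03g119980.3) rose from 17.0, 20.6 and 16.4 CPM to 56.8, 55.5 and 86.8 CPM (log2 fold change 1.88, edgeR adjusted p = 0.00289).

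Further genes of this path were chosen after their values were seen. Shikimate O-hydroxycinnamoyltransferase (Solyc03g117600.3), which acts on the way to caffeoyl shikimate, measured 10.1, 14.3 and 29.2 CPM in WT and 239.2, 273.7 and 447.4 CPM in nor-like1 (log2 fold change 4.16, edgeR adjusted p = 0.00498). Hydroxycinnamoyl CoA quinate transferase (Solyc07g005760.3), which makes chlorogenic acid, the common substrate of polyphenol oxidases in tomato, measured 62.9, 50.6 and 53.0 CPM in WT and 40.4, 39.0 and 38.6 CPM in nor-like1. Its groups did not overlap and its level in nor-like1 was the lower one (log2 fold change -0.50, edgeR adjusted p = 0.0229). That call was lost without WT replicate 1 or 2 and without nor-like1 replicate 2 or 3, with adjusted p-values of 0.0528 to 0.0808. Phenylalanine ammonia-lyase 2 (Solyc05g056170.3), an isoform of the entry enzyme, rose from 3.08 ± 1.23 to 45.8 ± 16.2 CPM (log2 fold change 3.88, edgeR adjusted p = 0.00343). The isoforms at the highest levels rose by smaller folds. Solyc09g007920.4 went from 780.7 to 1864 CPM (log2 fold change 1.26, edgeR adjusted p = 0.00345). Solyc09g007900.5 went from 301.6 to 810.5 CPM (log2 fold change 1.43, edgeR adjusted p = 0.00713). The count of called genes in this path fell to 10 without WT replicate 2, to 13 without WT replicate 1 and to 12 without nor-like1 replicate 3.

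**Figure D4:**
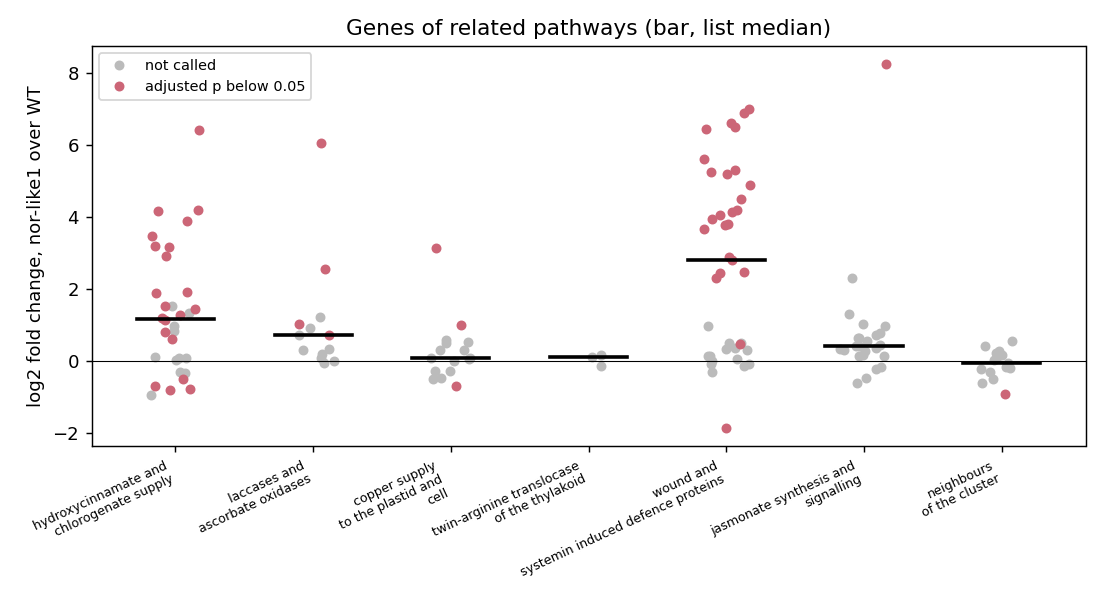
Log2 fold change of nor-like1 over WT (vertical axis) for each tested gene of the 7 gene lists described beside the polyphenol oxidases (horizontal axis, points spread sideways for legibility). Red points have an edgeR adjusted p below 0.05 and grey points do not. The black bar is the median of each list, from -0.05 for the neighbours of the cluster to 2.80 for the wound protein list.

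Laccases and ascorbate oxidases are multicopper enzymes that oxidise phenols or ascorbate outside the plastid. Of 30 listed laccase and ascorbate oxidase genes, 13 were tested, 4 were called higher, 0 lower and 9 were not called, with a median log2 fold change of 0.72. Of all tested genes 10.5% were called higher and 11.4% lower, with a median of -0.01. The list includes ascorbate oxidase homologs by best hit, among them a gene described as a pectinesterase (Solyc04g082140.3, not called). Without adjustment, 7 were higher and 0 lower at p below 0.05, and DESeq2 called 4 higher and 0 lower. A laccase gene (Solyc06g082240.2), for an enzyme class that couples phenols in cell walls, measured 0.291, 0.177 and 1.57 CPM in WT and 63.9, 25.9 and 56.2 CPM in nor-like1 (log2 fold change 6.05, edgeR adjusted p = 0.00481). An ascorbate oxidase gene (Solyc04g054690.3) gave a log2 fold change of 2.56 (edgeR adjusted p = 0.0345) and an ascorbate oxidase-like gene (Solyc07g052230.3) 0.72 (adjusted p = 0.0186). Both of these calls were lost when replicate 1 or 2 of WT or replicate 2 or 3 of nor-like1 was left out, with edgeR adjusted p-values of 0.0936 to 0.118 for the first and 0.0575 to 0.0782 for the second. The first was also lost with no filter on low counts (adjusted p = 0.0725). The count of called genes fell to 1 without WT replicate 1 or 2 or nor-like1 replicate 2, and to 2 without nor-like1 replicate 3.

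Copper supply, on which each PPO protein depends, had called genes in both directions. Of 21 listed genes 16 were tested, 2 were called higher, 1 lower and 13 were not called, and the median log2 fold change was 0.08, while 21.9% of all tested genes were called. These counts and the median include copper-using proteins, plastocyanin and Cu-Zn superoxide dismutases, which do not supply copper. None of the latter genes was called in the edgeR fit over 6 libraries. A gene described as heavy metal-associated isoprenylated plant protein 26 (Solyc11g007200.3) was listed because its best hit is like the copper transport protein CCH. That gene rose from 2.20 ± 0.904 to 19.3 ± 3.81 CPM (log2 fold change 3.13, edgeR adjusted p = 0.00241). A copper chaperone gene (Solyc05g055310.3) rose from 30.5 ± 2.47 to 61.1 ± 12.7 CPM (log2 fold change 1.00, edgeR adjusted p = 0.00917). The copper chaperone for superoxide dismutase (Solyc08g079830.5) went from 55.9 ± 7.73 to 34.6 ± 8.47 CPM (log2 fold change -0.69, edgeR adjusted p = 0.0432), a call lost without WT replicate 1 or 2 or nor-like1 replicate 2 or 3 (adjusted p 0.113 to 0.139) and with upper-quartile factors (0.0532). PAA1 (Solyc01g105160.4) and PAA2 (Solyc08g061610.5), the ATPases that carry copper into the plastid and the thylakoid lumen, gave log2 fold changes of 0.08 (edgeR adjusted p = 0.611) and 0.59 (adjusted p = 0.0801). A further gene annotated as PAA2 (Solyc08g061570.3), at 0.899 CPM in WT and 0.885 CPM in nor-like1, gave -0.01 (edgeR adjusted p = 0.996). These ATPase genes were chosen after their values were seen.

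The twin-arginine translocase, through which PPO precursors cross the thylakoid membrane, was listed with 3 genes. None was called by edgeR or DESeq2 and none had an unadjusted p below 0.05, and their median log2 fold change was 0.11. TATA (Solyc01g097310.3) gave 0.17 (edgeR adjusted p = 0.27), TATB (Solyc03g025310.3) -0.15 (adjusted p = 0.426) and TATC (Solyc05g008530.3) 0.11 (adjusted p = 0.643).

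In a list matched by the names of proteins that tomato makes alongside polyphenol oxidase after wounding, 24 of 39 tested genes were called higher in nor-like1. Of all tested genes 10.5% were called higher. The list takes proteinase inhibitors, multicystatins, leucine aminopeptidase, arginase, threonine deaminase and systemin precursors. It also took genes whose best hits name other proteins, among them a reticulon-like protein and serine racemases, which were not called. It was known from earlier results of these data that proteinase inhibitors rose, so the count of the list is not independent of them. Of 53 listed genes 39 passed the filter on low counts, 1 was called lower and 14 were not called, with a median log2 fold change of 2.80. Summed over the listed genes they held 2143 to 3420 CPM in the WT libraries and 11935 to 17770 CPM in the nor-like1 libraries. A serine protease inhibitor gene (Solyc03g098760.3) rose from 0.170 ± 0.147 to 14.5 ± 5.63 CPM (log2 fold change 6.44, edgeR adjusted p = 0.00271). A proteinase inhibitor gene (Solyc09g089520.4) rose from 0.780 ± 0.645 to 30.9 ± 3.57 CPM (log2 fold change 5.29, edgeR adjusted p = 0.00312). The gene that fell was a type-2 proteinase inhibitor (Solyc11g020960.2), from 84.3 ± 24.2 to 23.1 ± 1.81 CPM (log2 fold change -1.87, edgeR adjusted p = 0.00312). Without WT replicate 2 the list's count of called genes was 12.

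Several classic wound proteins, chosen after their values were seen, resembled PPO B in their order among the WT libraries. A multicystatin-type cysteine proteinase inhibitor gene (Solyc06g073587.1), which has a close copy in these tables, measured 1.53, 16.5 and 32.2 CPM in WT and 1645, 1265 and 3002 CPM in nor-like1 (log2 fold change 6.88, edgeR adjusted p = 0.0115, and 0.0584 without WT replicate 2). Arginase 2 (Solyc01g091170.3), which breaks down dietary arginine in the herbivore gut, measured 150.1, 247.7 and 473.4 CPM in WT and 1410, 1560 and 1903 CPM in nor-like1 (log2 fold change 2.48, edgeR adjusted p = 0.0128, and 0.062 without WT replicate 2). Both were lowest in WT replicate 1 and highest in WT replicate 3 within WT, as was PPO B.

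Leucine aminopeptidase A1 (Solyc12g010020.3) measured 8.01, 35.7 and 161.5 CPM in WT and 840.6, 934.0 and 1051 CPM in nor-like1 (log2 fold change 3.78, edgeR adjusted p = 0.0461). Threonine deaminase (Solyc09g008670.3) measured 1.63, 13.1 and 43.9 CPM in WT and 511.4, 199.1 and 367.9 CPM in nor-like1 (log2 fold change 4.20, edgeR adjusted p = 0.0394). In both genes no WT library reached a nor-like1 library. Both calls lay near the threshold and were lost without WT replicate 2, without any single nor-like1 library and with no filter on low counts, with adjusted p-values of 0.0826 to 0.147.

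Of the 24 wound list genes called higher, 19 had WT replicate 1 lowest and WT replicate 3 highest within WT, as PPO B had. The same order held for 20.8% of all tested genes and for 36.1% of all genes called higher. No test was made of that count.

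A list for the synthesis and signalling of jasmonate, the hormone that induces polyphenol oxidase and proteinase inhibitors in wounded tomato leaves, gave 1 call. No gene annotated as the jasmonate receptor was in the list. Of 29 listed genes 24 were tested, 1 was called higher, 0 lower and 23 were not called, with a median log2 fold change of 0.41. Of all tested genes 78.1% were not called. At an unadjusted p below 0.05, 5 were higher and 0 lower, and DESeq2 called 1 higher and 0 lower. Their summed level overlapped between genotypes, at 1231 to 3220 CPM in WT and 2009 to 3604 CPM in nor-like1. The called gene was CYP74C3 (Solyc10g007960.1), an enzyme that in tomato acts on 9-hydroperoxides, which do not lead to jasmonate. It measured 0, 0.354 and 0 CPM in WT and 70.6, 8.76 and 11.4 CPM in nor-like1 (log2 fold change 8.24, edgeR adjusted p = 0.0152, and 0.0541 and 0.0785 without WT replicate 1 and 2).

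Allene oxide synthase (Solyc04g079730.1), an entry enzyme of jasmonate synthesis, measured 7.38, 27.2 and 133.4 CPM in WT. In nor-like1 it measured 15.7, 97.4 and 73.1 CPM (log2 fold change 0.14, edgeR adjusted p = 0.934). JAZ1 (Solyc12g009220.2), a repressor that is itself induced by jasmonate, measured 4.94, 15.1 and 80.3 CPM in WT and 30.1, 71.3 and 70.9 CPM in nor-like1 (log2 fold change 0.77, edgeR adjusted p = 0.587). Both genes, chosen after their values were seen, were highest of all 6 libraries in WT replicate 3. Over the list this held for 10 of the 24 tested jasmonate genes, and 4 had every nor-like1 library above every WT library. No test was made of these counts. Without WT replicate 3, 11 of the 24 jasmonate genes were called, all higher in nor-like1, among them JAZ1 (edgeR adjusted p = 0.0345) but not this allene oxide synthase gene (adjusted p = 0.183).

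**Figure D5:**
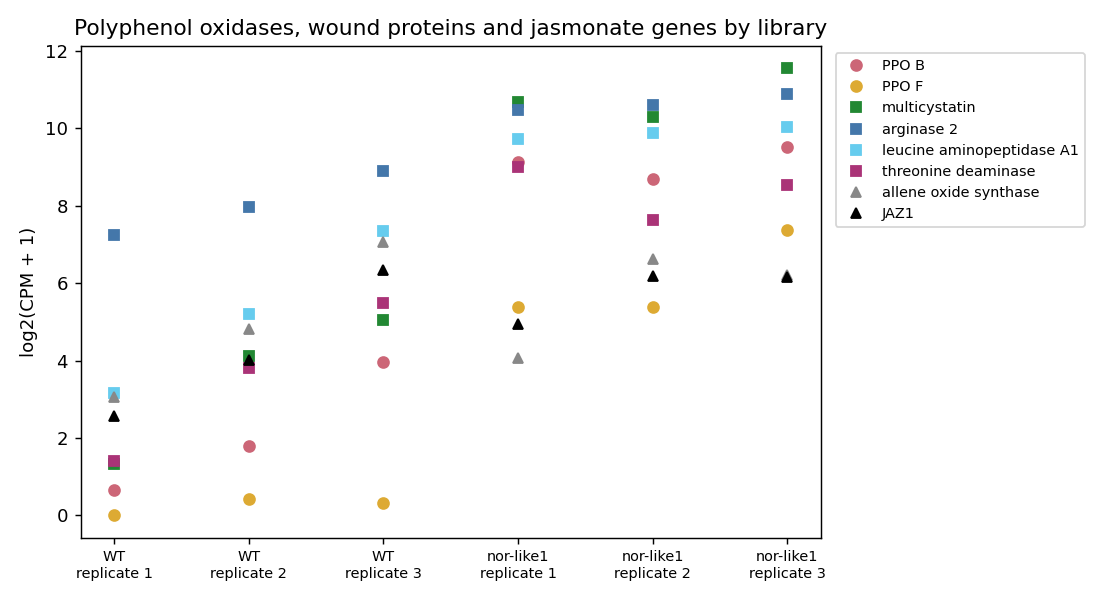
log2(CPM + 1) of PPO B and PPO F (circles), 4 wound-induced proteins (squares) and 2 jasmonate genes (triangles) in each library (horizontal axis), the last 6 genes chosen after their values were seen. Each gene shown by circles or squares has its nor-like1 values above its WT values, while the triangles of WT replicate 3 lie at or above those of nor-like1.

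By likeness over the 6 libraries, in Pearson's r of log2(CPM + 1), the genes nearest to PPO B were a DUF21 domain gene (Solyc01g080160.5, r = 0.9992), a CCCH zinc finger gene (Solyc09g074640.3, r = 0.9991), a cytosolic acetyl-CoA acetyltransferase gene (Solyc05g017760.4, r = 0.9988), a GDSL esterase/lipase gene (Solyc02g071700.3, r = 0.9985) and a protein kinase gene (Solyc12g099830.2, r = 0.9985). Of these the GDSL gene had a fitted fold of 56.1, at 1.57, 3.36 and 11.4 CPM in WT and 335.9, 237.2 and 355.9 CPM in nor-like1. The other 4 had the same pattern at fitted folds of 1.43 to 2.23. The genes nearest to PPO F were EPSP synthase (Solyc01g091190.3, r = 0.9973), DAHP synthase 2 (Solyc04g074480.3, r = 0.9966) and the caffeoylshikimate esterase named above (Solyc03g119980.3, r = 0.9962), beside an acyltransferase gene (Solyc12g005430.1, r = 0.9962) and the transporter gene ABCG11 (Solyc03g019760.4, r = 0.9959). The 6 libraries form separate groups by genotype, and of 16377 genes 759 had an r above 0.95 with PPO B and 575 with PPO F.

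Glandular trichomes are a known site of polyphenol oxidase in tomato leaves, so their markers are given beside the PPO values. Of 10 listed marker genes 4 were tested and 1 was called higher, monoterpene synthase 1 (Solyc01g105890.3), at 0, 0.266 and 4.74 CPM in WT and 24.9, 45.0 and 31.0 CPM in nor-like1 (log2 fold change 4.26, edgeR adjusted p = 0.0377). That call was lost with DESeq2, with no filter on low counts and on leaving out any single library except WT replicate 3, with adjusted p-values of 0.0522 to 0.12. The summed marker level was 9.47 to 14.5 CPM in WT and 36.6 to 56.9 CPM in nor-like1. Without that gene it was 9.47 to 10.5 and 11.7 to 12.8 CPM. Of the 10 markers, 3 were at 0 in all WT libraries and 2 at 0 in all nor-like1 libraries. The part of trichome cells in the PPO values was not tested.

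Markers of the fruit epidermis were detected in both genotypes, as the label exocarp implies. All 6 listed markers were tested, 2 were called higher and 2 lower, and their sum was 2667 to 3114 CPM in WT and 6963 to 8444 CPM in nor-like1. The 2 that rose were a lipid-transfer protein gene (Solyc10g075100.2), from 1889 to 5304 CPM (edgeR adjusted p = 0.00241), and the wax gene CER3 (Solyc03g117800.4), from 715.3 to 2103 CPM (adjusted p = 0.00403). The 2 that fell were the cutin genes CYP86A7 (Solyc08g081220.1), from 47.5 to 27.8 CPM (edgeR adjusted p = 0.0226), and GPAT6 (Solyc09g014350.3), from 46.4 to 18.9 CPM (adjusted p = 0.0279). Of 101 listed seed and late embryogenesis genes 45 were tested, 4 were higher and 9 lower, beside 10.5% higher and 11.4% lower among all tested genes. The list, matched by name, also takes hydroxyproline-rich late embryogenesis genes and a lipid-transfer superfamily whose name includes seed storage albumin. All 4 higher genes were of these kinds. The sum over the 101 genes was 10126 to 11638 CPM in WT and 4157 to 5725 CPM in nor-like1. A single gene, the Lea5 gene Solyc09g075210.3, held most of that sum, at 9361 CPM in WT and 3023 CPM in nor-like1 on average, and the other 100 genes summed to 1497 to 1655 CPM in WT and 1594 to 1870 CPM in nor-like1. The 12 seed storage proteins among them summed to 5.10 to 8.48 CPM in WT and 1.46 to 7.98 CPM in nor-like1. Their part in the PPO values was not tested.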

How the data were processed

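Each library's table, as deposited by the authors, holds expected counts and FPKM per gene, per the file headers. A further table from the authors gives log2 fold changes and p-values by DESeq2, per the file headers, beside group expression columns, a signal on a scale the authors do not state, which was not used. The submitters' processing notes name HISAT2, StringTie, Bowtie2 and RSEM without versions. Genome build and use of strand were not given in the sources used here, so a gene and an antisense partner cannot be told apart. A gene that a table does not list was set to 0.

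Expected counts were rounded and tested with edgeR 4.0.16 in R 4.3.3 (TMM, filterByExpr, robust quasi-likelihood fit, genotype as the only term). The call threshold was an adjusted p (Benjamini-Hochberg) below 0.05 over 16380 genes. SE is the absolute log2 fold change over the square root of F. CPM were scaled by TMM factors. Counting intervals are exact, at 95%. DESeq2 1.42.0 and limma 3.58.1 on log2(FPKM + 1) and log2(FPKM + 0.1) were alternatives, beside upper-quartile factors, other filters, a replicate block and leaving out each library. The script was tested on simulated counts, whose fold changes were smaller than those of PPO B, F and E. No pair of libraries of a genotype agreed within sampling noise (chi-square per gene of 10.8 to 49.4).

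The members, gene lists and tests were chosen with earlier results of these data known. Named are all members, SlNOR-like1, all genes of lists with 5 or fewer tested, up to 3 called genes per list with the smallest p and groups that do not overlap, the tested neighbours (those described, with the range of the others), and the 5 genes most like PPO B and PPO F. Other genes are said to be chosen after their values were seen. Gene lists are patterns on product descriptions and best protein hits. Under RefSeq assembly SLM_r2.1 names were looked up, and no coordinates or sequences are given.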

Additional observations from a re-analysis of the deposited data

How the results depend on the processing

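The count of called genes (3585) ran from 1139 to 4742 on leaving out 1 library, and that of called members (3) from 1 to 3. On leaving out 1 library the log2 fold change of PPO B ran from 6.0 to 8.64, of PPO F from 7.75 to 9.32 and of PPO E from 6.04 to 8.95. With limma on log2(FPKM + 1), PPO F was at 5.12 and PPO E at 1.61, and with 0.1 as pseudocount at 7.57 and 4.20, since a pseudocount shrinks low values. PPO E was not past the threshold with limma on log2(FPKM + 1), which left 2 members called. With no filter on low counts PPO D was also past the threshold, making 4 members. The mean share of family FPKM held by PPO B ran from 92.6% to 99.0% in WT and 85.2% to 91.5% in nor-like1, and that of PPO F from 0.849% to 7.25% and 7.99% to 13.8%, on leaving out 1 library.

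Called genes of the lists, on leaving out 1 library, ran from 10 to 24 for hydroxycinnamate supply, 1 to 5 for laccases and ascorbate oxidases, 2 to 5 for copper supply, 12 to 24 for wound proteins, 0 to 11 for jasmonate and 1 to 3 for the neighbours. Copper supply had 5 called with DESeq2 and with limma at either pseudocount. Jasmonate had 2 with limma at either pseudocount and with the replicate block. The neighbours had 2 with DESeq2 and with upper-quartile factors. The causes were not tested. No direction was reversed for any called value.

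Samples share only a replicate number. Deviations from the group means correlated at 0.246, -0.269 and 0.0532 between same-numbered libraries. The replicate block gave 2626 called genes and 3 called members, with log2 fold changes of 7.25, 8.77 and 7.49 for PPO B, F and E. Threonine deaminase missed the threshold there (edgeR adjusted p = 0.0582). Depth limits PPO D, the gene like PPO E and the gene on chromosome 2, whose libraries held at most 12 counts.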
